A study of Mus musculus with 10 samples.

Results

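The 32 genes described here make, move, sense and export cholesterol, and they were followed through regulatory T cells (Tregs) of gut and spleen. They were taken by symbol from a table of 27179 genes. Of the 32, 7 encode enzymes of the mevalonate pathway, 11 encode enzymes from squalene synthesis to cholesterol, and 5 belong to the SREBP control system. A further 4 serve intracellular transport and storage, and 5 form the LXR and efflux arm. Tregs, which depend on the transcription factor Foxp3, are T cells that hold immune responses in check. C57BL/6 mice gave them, from spleen or from gut (colon and small intestine), by sorting for CD4+ TCRb+ YFP+. Control mice carry Foxp3Cre-YFP (called WT). Maf-KO mice carry Foxp3Cre-YFP with Maffl/fl, so that Maf, which encodes the transcription factor c-Maf, is deleted by a Cre recombinase driven from Foxp3 in cells that express Foxp3. Cre-YFP is therefore present in all 4 groups, and the age of the mice is not stated in the labels. The groups are WT gut (2 libraries, replicates 1 and 3), Maf-KO gut (2 libraries, replicates 2 and 3), WT spleen (3 libraries) and Maf-KO spleen (3 libraries). Whether replicates came from separate animals is not stated in the labels. The p-values then reflect the spread between these samples only, which may be technical in part.

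A cell obtains cholesterol from acetyl-CoA through the mevalonate pathway and the sterol enzymes, or from lipoproteins taken up and emptied in lysosomes. When sterols in the endoplasmic reticulum are low, SCAP escorts the SREBP proteins to the Golgi, where they are cut and released as transcription factors for the synthesis and uptake genes. When sterols are high, INSIG proteins hold SCAP back, and oxysterols activate the nuclear receptors LXR alpha and LXR beta, which raise the efflux pumps ABCA1 and ABCG1 and the ubiquitin ligase that MYLIP encodes. In T cells, sterol synthesis is known to be raised on activation and growth.

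Promoter sequences are printed for 5 of the members that differed between gut and spleen in both genotypes. Those of Abca1 and Srebf2, which also differed, were searched but are not printed. RefSeq windows of the GRCm38.p6 build, from 250 bases before to 50 bases after a transcription start, were found for 26 of the 32 members. The motifs searched on both strands were a sterol regulatory element (TCACNCCAC), an E-box (CACGTG), the CCAAT box (CCAAT, or ATTGG on the other strand), a GC box (GGGCGG, or CCGCCC on the other strand) and an LXR direct repeat (AGGTCA, any 4 bases, then AGGTCA again). The 250 bases before the start are given 5′ to 3′ on each gene's strand, with the sterol element, E-box and CCAAT matches in capitals and no overlap between them. The windows are Hmgcs1 at chr13:119690101-119690350 (+), Cyp51 at chr5:4104698-4104947 (−), Msmo1 at chr8:64733579-64733828 (−), Insig1 at chr5:28071162-28071411 (+) and Mylip at chr13:45389492-45389741 (+).
Hmgcs1: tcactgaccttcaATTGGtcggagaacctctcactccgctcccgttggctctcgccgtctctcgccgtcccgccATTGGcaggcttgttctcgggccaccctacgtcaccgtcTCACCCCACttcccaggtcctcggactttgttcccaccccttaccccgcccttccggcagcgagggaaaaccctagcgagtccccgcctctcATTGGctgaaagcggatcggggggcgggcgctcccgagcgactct
Cyp51: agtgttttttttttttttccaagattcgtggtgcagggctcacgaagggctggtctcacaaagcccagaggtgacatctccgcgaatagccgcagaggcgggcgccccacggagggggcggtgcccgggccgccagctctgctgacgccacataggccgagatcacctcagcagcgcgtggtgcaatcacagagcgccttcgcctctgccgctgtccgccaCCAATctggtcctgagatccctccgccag
Msmo1: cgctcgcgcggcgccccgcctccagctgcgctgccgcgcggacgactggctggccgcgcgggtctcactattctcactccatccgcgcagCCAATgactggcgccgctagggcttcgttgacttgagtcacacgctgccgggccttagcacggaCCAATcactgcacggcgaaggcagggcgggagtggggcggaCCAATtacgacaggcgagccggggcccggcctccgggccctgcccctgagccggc
Insig1: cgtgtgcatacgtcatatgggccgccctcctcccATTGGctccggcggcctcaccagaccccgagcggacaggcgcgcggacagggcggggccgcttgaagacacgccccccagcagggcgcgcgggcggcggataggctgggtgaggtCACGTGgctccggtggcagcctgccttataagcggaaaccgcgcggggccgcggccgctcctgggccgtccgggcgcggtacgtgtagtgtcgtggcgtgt
Mylip: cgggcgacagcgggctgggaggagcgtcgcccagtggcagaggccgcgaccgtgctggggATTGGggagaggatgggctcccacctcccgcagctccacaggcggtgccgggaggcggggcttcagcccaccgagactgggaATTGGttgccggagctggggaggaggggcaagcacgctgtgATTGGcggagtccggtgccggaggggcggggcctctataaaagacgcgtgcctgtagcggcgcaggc

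Among the 26 members with a window, the sterol element as spelled was found in Hmgcs1 alone, where it reads TCACCCCAC from base -137 to base -129 before the start. That spelling occurs in 1.44% of all 27025 genes with a RefSeq window. The E-box was found in 6 members (Abca1, Dhcr7, Hsd17b7, Insig1, Sc5d and Scap) and in 8.09% of all genes with a window. A CCAAT box was found in 21 of the 26 members and in 41.1% of those genes, and a GC box in 23 of 26 members and 38.2% of genes. The LXR repeat was found in no member and in 0.0148% of genes. Each match describes letters in a window and is not a shown binding site. In 6 members more than 1 window was searched, which gives them more room for a match.

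The libraries held between 8567035 and 13983965 counts, and all 32 members passed the filter on low counts. Levels are given as CPM, counts scaled to the TMM-normalised library total, where 3 counts correspond to between 0.231 and 0.377 CPM. Maf was counted 859 and 918 times in WT gut, 7 and 3 times in Maf-KO gut, 337, 312 and 484 times in WT spleen, and 2, 10 and 2 times in Maf-KO spleen. Its log2 fold change on deletion was -7.98 (SE 0.57, adjusted p = 0.000451) in gut and -6.04 (SE 0.46, adjusted p = 0.00188) in spleen, by edgeR's quasi-likelihood test as throughout. Of the 6 Treg markers none was at 0, and their sum was between 7410 and 8370 CPM in gut and between 2750 and 3330 CPM in spleen. Markers of other cells were present as well. The 9 B and plasma cell genes summed to 1460 to 6850 CPM in gut and 349 to 652 CPM in spleen. Of these 9 genes, 3 had all gut libraries above all spleen libraries and 5 had all below. The 14 gut epithelial genes summed to 146 to 179 CPM in gut and 35.6 to 71.3 CPM in spleen. Apoa4 was at 0 in every library. The 14 myeloid genes summed to 119 to 353 CPM in gut and 155 to 930 CPM in spleen. The 8 stromal and endothelial genes summed to 44.4 to 78.1 CPM in gut and 114 to 191 CPM in spleen, and the 8 acinar genes of the pancreas to 15.8 to 166 CPM in gut and 6.39 to 25.4 CPM in spleen. The 16 cell cycle genes summed to 699 to 1070 CPM in gut and 574 to 978 CPM in spleen, and none of them had all gut libraries on one side of all spleen libraries. The part of other cells in the results below was not tested. In bulk RNA, fewer cells of a kind and less RNA per cell cannot be told apart.

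The first comparison asked how the members differ between gut and spleen Tregs. In WT, 6 members rose in gut (Hmgcs1, Cyp51, Msmo1, Insig1, Srebf2 and Stard4) and 4 fell (Npc1, Abca1, Abcg1 and Mylip), at an adjusted p under 0.05. Over all 13214 genes tested, 14.7% were called higher and 13.3% lower in the same comparison. In Maf-KO, the same 10 members were called in the same directions, and Lss, Nsdhl and Hsd17b7 rose as well, which makes 9 higher and 4 lower, against 14.4% and 14.1% of all genes. These 10 shared calls are 100% of the WT calls and 76.9% of the Maf-KO calls, where for all genes 2825 shared calls are 76.3% of 3703 and 74.9% of 3772. The WT and Maf-KO tissue comparisons share no library, but their tests share 1 estimate of the spread. The median log2 fold change of the 32 members was 0.09 in WT and 0.22 in Maf-KO, and that of all genes was -0.03 and -0.02.

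**Figure D1:**
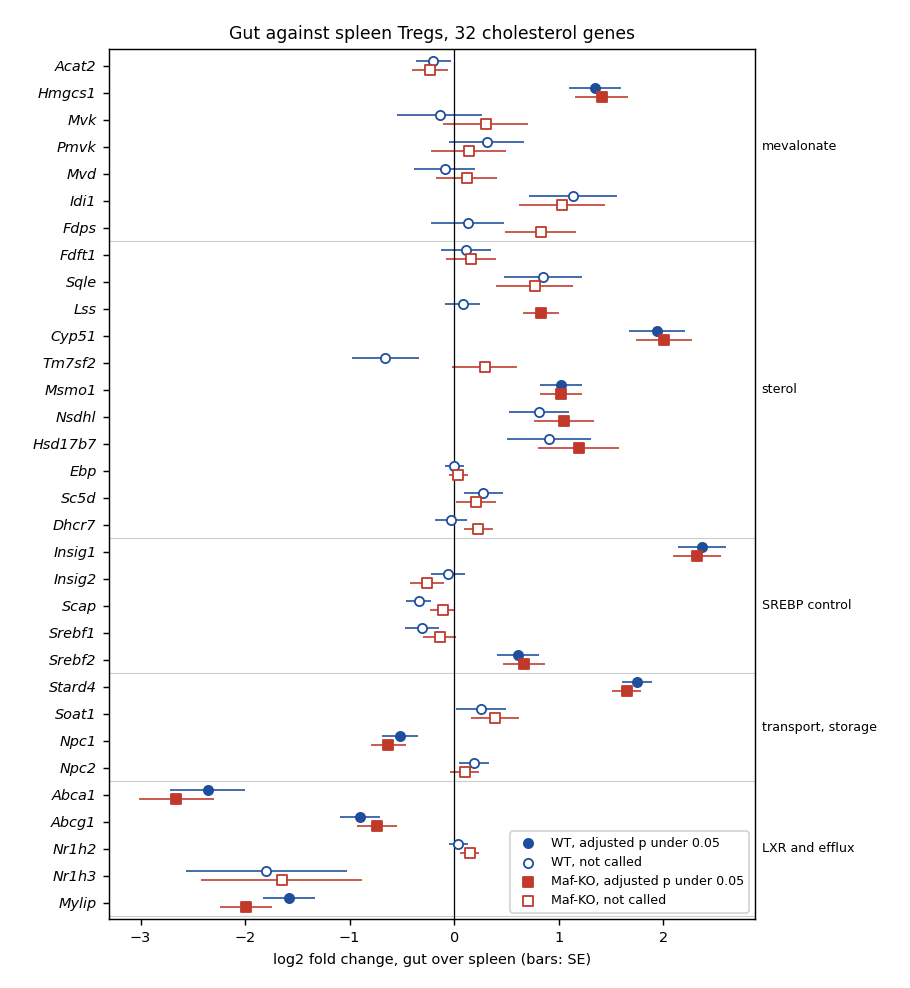
Log2 fold change of gut over spleen (horizontal axis, bars are the SE) for each of the 32 members, in WT (circles) and Maf-KO (squares), with filled symbols for an adjusted p under 0.05. Insig1, Cyp51 and Stard4 lie farthest to the right in both genotypes, at 1.65 or more, and Abca1 and Mylip are the called members farthest to the left, at -1.58 or less.

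The groups of the 2 tissues did not overlap for 18 members in WT, 10 with all gut libraries higher and 8 with all lower, beside 25.9% and 27.5% of all genes. In Maf-KO, 16 members had all gut libraries higher and 6 all lower, beside 27.5% and 28.9% of all genes. Without the TMM factors, an alternative chosen after seeing the data, the median of all genes moved to -0.301 (WT) and -0.277 (Maf-KO), and the share of called genes that were higher in gut went from 52.4% to 25.2% and from 50.5% to 25.1%. Members called were then 5 higher and 8 lower in WT, and 6 higher and 7 lower in Maf-KO. The authors' log2 FPKM values gave 5 higher and 7 lower in WT, 6 higher and 7 lower in Maf-KO, and 23.9% of called genes higher in both. Neither of those scales called Srebf2 in any genotype, or Nsdhl and Hsd17b7 in Maf-KO.

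The enzymes of the mevalonate pathway turn acetyl-CoA into farnesyl diphosphate. In each genotype 1 of the 7, Hmgcs1, was called higher in gut, beside 14.7% (WT) and 14.4% (Maf-KO) of all genes. Hmgcs1 encodes the cytosolic HMG-CoA synthase and lies at chr13:119690351-119708260. Its level was 204 and 164 CPM in WT gut against 68.5, 99.9 and 48.1 CPM in WT spleen. In Maf-KO it was 214 and 234 CPM in gut against 74.7, 83 and 95.8 CPM in spleen. Every gut library was above every spleen library. In WT the log2 fold change was 1.35 (SE 0.25, adjusted p = 0.00294), and it was 1.41 (SE 0.25, adjusted p = 0.00228) in Maf-KO.

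Idi1, the isomerase that makes dimethylallyl diphosphate, also had no overlap between tissues, with 13.2 and 8.75 CPM in WT gut and 5.6, 7.08 and 2.18 CPM in WT spleen. It did not pass the test in WT (log2 fold change 1.14, SE 0.42, adjusted p = 0.0708) or in Maf-KO (1.03, adjusted p = 0.09). Fdps encodes farnesyl diphosphate synthase, and its log2 fold change was 0.13 in WT and 0.83 in Maf-KO, with an adjusted p of 0.1 in the latter. The thiolase Acat2, the kinases Mvk and Pmvk and the decarboxylase Mvd lay between -0.23 and 0.31 in both genotypes and were not called. The median over the 7 genes was 0.13 in WT and 0.3 in Maf-KO. Of the 32 members, 11 overlap another gene model (Acat2, Mvd, Fdps, Fdft1, Lss, Tm7sf2, Insig1, Srebf1, Srebf2, Npc1 and Nr1h3). The strand setting of the counting is not given in the sources used here, so reads of antisense neighbours may be among their counts or missing from them.

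In gut, 2 of 11 enzymes from squalene synthesis to cholesterol rose in WT and 5 in Maf-KO, beside 14.7% and 14.4% of all genes. None of the 11 fell. The gene with the largest difference among them was Cyp51, the lanosterol 14-alpha demethylase, at chr5:4080674-4104697. Cyp51 was at 374 and 278 CPM in WT gut and at 75.5, 125 and 54.5 CPM in WT spleen. In Maf-KO it was at 367 and 406 CPM in gut and at 99.2, 92 and 97.4 CPM in spleen. The lowest gut library was thus above the highest spleen library in each genotype. Its log2 fold change was 1.94 (SE 0.27, adjusted p = 0.000698) in WT and 2.01 (SE 0.27, adjusted p = 0.000578) in Maf-KO.

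Msmo1, the methylsterol monooxygenase that acts on the C4 methyl groups, lies at chr8:64718123-64733578. It was at 180 and 136 CPM in WT gut against 76.4, 99.9 and 57.8 CPM in WT spleen, and at 166 and 182 CPM in Maf-KO gut against 79.4, 83 and 94.5 CPM in Maf-KO spleen. The tissues did not overlap, and the log2 fold change was 1.02 in both genotypes (SE 0.20), with an adjusted p of 0.00484 in WT and 0.00464 in Maf-KO. Without WT gut replicate 1 the WT call was lost, at an adjusted p of 0.0564.

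Nsdhl and Hsd17b7 encode the other enzymes of C4 demethylation. Nsdhl was at 47.2 and 37.5 CPM in WT gut, 26.3, 30.4 and 15.7 CPM in WT spleen, 49 and 61.6 CPM in Maf-KO gut, and 28.4, 18.6 and 33.2 CPM in Maf-KO spleen. Between tissues it differed on the log2 scale by 0.81 (SE 0.29, adjusted p = 0.0653) in WT and 1.05 (SE 0.29, adjusted p = 0.0226) in Maf-KO. The level of Hsd17b7 was 25.6 and 16.7 CPM in WT gut, 10.7, 17.2 and 5.69 CPM in WT spleen, 26.4 and 36.8 CPM in Maf-KO gut, and 13.1, 10.8 and 17.5 CPM in Maf-KO spleen. WT gut replicate 3 lay just below WT spleen replicate 2, while the Maf-KO tissues did not overlap. Its log2 fold change was 0.91 (adjusted p = 0.118) in WT and 1.19 (SE 0.39, adjusted p = 0.0455) in Maf-KO. Both Maf-KO calls ended when replicate 3 of Maf-KO gut was left out, and also without replicate 2 of Maf-KO spleen. The Maf-KO call of Hsd17b7 was held in 11 of 19 alternatives, with an adjusted p up to 0.244. That of Nsdhl was held in 15 of 19, with an adjusted p up to 0.146.

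Lss, the lanosterol synthase that closes the sterol rings, at chr10:76531565-76557139, was called in Maf-KO alone. It was at 24.4 and 30 CPM in WT gut, 24.8, 29.2 and 23 CPM in WT spleen, 39.5 and 42.4 CPM in Maf-KO gut, and 21.7, 20.4 and 27.2 CPM in Maf-KO spleen. Both Maf-KO gut libraries stood above all other libraries. The log2 fold change between tissues was 0.08 in WT and 0.83 (SE 0.17, adjusted p = 0.00556) in Maf-KO. The test of the difference between these values is given with the interaction, and it did not pass.

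Sqle encodes squalene epoxidase, a rate-controlling step, and it had no overlap between tissues but did not pass the test in either genotype. It was at 94.1 and 76.6 CPM in WT gut and at 47.7, 71.6 and 22.5 CPM in WT spleen (log2 fold change 0.85, adjusted p = 0.117). In Maf-KO the log2 fold change was 0.77 (adjusted p = 0.151). Fdft1 (squalene synthase), Ebp (the sterol isomerase), Sc5d (the C5 desaturase) and Dhcr7 (a last-step reductase) lay between -0.03 and 0.28 in both genotypes. Tm7sf2, a C14 reductase counted at 2.97 to 6.67 CPM, was -0.66 in WT and 0.29 in Maf-KO, with neither called. The median of the 11 enzymes was 0.28 in WT, with 9 of 11 positive, and 0.77 in Maf-KO, with 11 of 11 positive.

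In the SREBP control system, Insig1 and Srebf2 rose in gut in both genotypes, and Insig2, Scap and Srebf1 were not called. Insig1, at chr5:28071412-28078662, is itself a target of SREBP and encodes the protein that retains SCAP. It was at 180 and 144 CPM in WT gut and at 33.7, 39.6 and 20.2 CPM in WT spleen. In Maf-KO it was at 174 and 190 CPM in gut and at 33, 34.1 and 42.1 CPM in spleen. The lowest gut library was far above the highest spleen library. The log2 fold change of 2.37 (SE 0.23, adjusted p = 7.66e-05) in WT and 2.32 (SE 0.23, adjusted p = 9.47e-05) in Maf-KO was the largest increase among the 32 members in both genotypes.

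Insig2, its paralogue, was at 46.7 and 46.9 CPM in WT gut and at 41.3, 48.2 and 56.8 CPM in WT spleen, so the groups overlapped. The log2 fold change of Insig2 was -0.06 in WT and -0.26 in Maf-KO. Srebf2 encodes SREBP-2, the main activator of the synthesis genes, and lies at chr15:82147269-82205379. It was at 350 and 323 CPM in WT gut, 224, 272 and 168 CPM in WT spleen, 316 and 423 CPM in Maf-KO gut, and 224, 212 and 258 CPM in Maf-KO spleen. The tissues did not overlap, with log2 fold changes of 0.61 (SE 0.20, adjusted p = 0.043) and 0.67 (SE 0.20, adjusted p = 0.0275). The WT call of Srebf2 was held in 10 of 19 alternatives and the Maf-KO call in 14 of 19, with adjusted p up to 0.199 and 0.233. Srebf1, which encodes SREBP-1, was -0.31 in WT, and Scap was -0.34 (adjusted p = 0.0597). Both were called lower in WT gut without the TMM factors, at -0.58 and -0.61, as were Tm7sf2 and Ebp at -0.94 and -0.27.

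Of the 4 genes of transport and storage, Stard4 rose and Npc1 fell in both genotypes. Stard4, a cytosolic carrier that moves cholesterol between membranes, was at 80.3 and 73.3 CPM in WT gut and at 20.5, 26.8 and 21.2 CPM in WT spleen. In Maf-KO it was at 73.4 and 86 CPM in gut and at 24.5, 27.3 and 24.6 CPM in spleen. The 4 gut libraries and the 6 spleen libraries formed separate narrow ranges. Its log2 fold change was 1.75 (SE 0.14, adjusted p = 2.37e-05) in WT and 1.65 (SE 0.14, adjusted p = 3.76e-05) in Maf-KO, the lowest adjusted p among the members in each genotype.

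Npc1, the membrane protein that exports cholesterol from lysosomes, was at 24.6 and 29.9 CPM in WT gut, 34.6, 45.6 and 37.2 CPM in WT spleen, 24 and 27.8 CPM in Maf-KO gut, and 37.3, 44.9 and 38.4 CPM in Maf-KO spleen. All gut libraries were lower, with log2 fold changes of -0.52 (SE 0.17, adjusted p = 0.0433) and -0.63 (SE 0.17, adjusted p = 0.0185). The WT call of Npc1 was held in 7 of 19 alternatives, with an adjusted p up to 0.238, and its model overlaps Rmc1. Its lysosomal partner Npc2 was at 195 and 204 CPM in WT gut and at 178, 178 and 169 CPM in WT spleen (0.19, not called). Soat1, which esterifies cholesterol for storage, was 0.26 in WT and 0.39 in Maf-KO, with neither called.

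In the LXR and efflux arm, Abca1, Abcg1 and Mylip fell in gut in both genotypes, and the receptors Nr1h2 and Nr1h3 were not called. Abca1, the pump that loads cholesterol onto apolipoprotein A-I, lies at chr4:53030789-53159988. It was at 3.39 and 6.86 CPM in WT gut and at 19.8, 26.9 and 32.3 CPM in WT spleen. In Maf-KO it was at 5.91 and 4.71 CPM in gut and at 32.4, 43.6 and 24.7 CPM in spleen. The highest gut library was below the lowest spleen library. A log2 fold change of -2.36 (SE 0.36, adjusted p = 0.00118) in WT and -2.66 (SE 0.36, adjusted p = 0.000535) in Maf-KO made it the largest decrease among the members.

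Mylip, whose product marks lipoprotein receptors for degradation, lies at chr13:45389742-45411940. It was at 10.5 and 15.8 CPM in WT gut, 41.1, 36.3 and 41.2 CPM in WT spleen, 11.5 and 10.9 CPM in Maf-KO gut, and 36.6, 59.5 and 38 CPM in Maf-KO spleen. Again no gut library reached the spleen range. The log2 fold change was -1.58 (SE 0.25, adjusted p = 0.00134) in WT and -1.99 (SE 0.25, adjusted p = 0.000356) in Maf-KO.

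Abcg1, a pump that exports cholesterol to larger lipoproteins, lies at chr17:31057694-31117984. It was at 38.3 and 52 CPM in WT gut, 73.1, 81.6 and 98.8 CPM in WT spleen, 57 and 43.1 CPM in Maf-KO gut, and 83, 93 and 74.4 CPM in Maf-KO spleen. The tissues did not overlap, with log2 fold changes of -0.90 (SE 0.19, adjusted p = 0.00638) and -0.74 (SE 0.19, adjusted p = 0.0157). The WT value had an adjusted p of 0.069 when WT gut replicate 1 was left out. Leaving out replicate 3 of Maf-KO gut, or replicate 2 of Maf-KO spleen, ended the Maf-KO call too, at up to 0.15.

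Nr1h2 encodes LXR beta and was at 82.4 to 96.2 CPM across all 10 libraries, with log2 fold changes of 0.04 and 0.15 between tissues. Nr1h3 encodes LXR alpha and was counted at low levels, 1 and 1.89 CPM in WT gut, 5.87, 2.23 and 7.21 CPM in WT spleen, 1.74 and 0.559 CPM in Maf-KO gut, and 2.28, 6.83 and 1.75 CPM in Maf-KO spleen. Maf-KO spleen replicate 3 was only just above Maf-KO gut replicate 2, and the spleen libraries differed several-fold among themselves. With a log2 fold change of -1.80 (adjusted p = 0.11) in WT and -1.65 (adjusted p = 0.138) in Maf-KO, it was not called. The highest Nr1h3 values came from replicate 3 of WT spleen and replicate 2 of Maf-KO spleen, which also had the highest sums of myeloid markers in their groups, 930 and 535 CPM. Abca1 (32.3 and 43.6 CPM), Abcg1 (98.8 and 93 CPM) and Mylip (41.2 and 59.5 CPM) were likewise highest of their groups in these libraries, although Mylip was at 41.1 CPM in WT spleen replicate 1 as well. Without the library of the same genotype, the log2 fold changes in WT and Maf-KO were -2.18 (adjusted p = 0.00348) and -2.43 (adjusted p = 0.00177) for Abca1, and -1.55 (adjusted p = 0.00423) and -1.73 (adjusted p = 0.000584) for Mylip. For Abcg1 they were -0.78 (adjusted p = 0.0182) and -0.65 (adjusted p = 0.0503). The spleen libraries that remained still had myeloid sums of 155 to 260 CPM. In gut the myeloid sum was 283 CPM in WT replicate 3 against 128 CPM in WT replicate 1. It was 353 CPM in Maf-KO replicate 2 against 119 CPM in Maf-KO replicate 3. Nr1h3, Abca1, Abcg1 and Mylip were each higher in the gut library with the higher sum, in both genotypes. For Abca1 the values were 6.86 against 3.39 CPM in WT and 5.91 against 4.71 CPM in Maf-KO. The sum of 353 CPM was above 4 of the 6 spleen libraries. Of the 14 myeloid markers, 2 had all gut libraries below all spleen libraries and none had all above. The part of myeloid cells in these tissue differences was not tested.

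**Figure D2:**
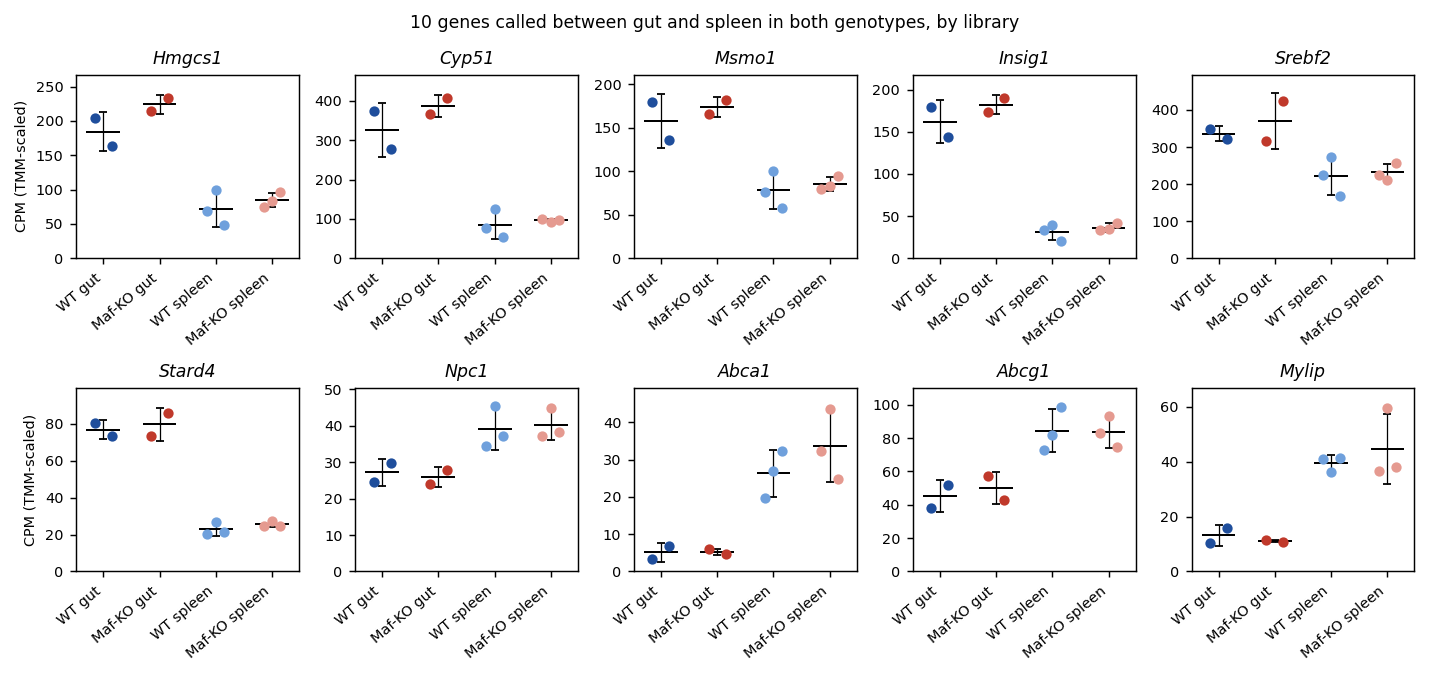
CPM (vertical axis, from 0) of the 10 members called between the tissues in both genotypes, with a point per library and the mean and SD of each group as a line and bar (2 gut libraries or 3 spleen libraries a group). In each panel the gut points lie wholly above or wholly below the spleen points, as for Insig1 with 144 CPM or more in gut and 42.1 CPM or less in spleen.

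Gut and spleen libraries of the same genotype share a number in their titles in 4 cases, and libraries with the same number deviated together, so the difference was also read within each number. In 15 members gut was higher in 4 of 4 numbers, and in 6 it was lower in 4 of 4, beside 30.4% and 32% of all genes. Within a number, log2 of gut over spleen was 2.17 to 2.83 for Insig1, 2 to 2.35 for Cyp51, 1.43 to 1.97 for Stard4 and 1.29 to 1.77 for Hmgcs1. It was 0.58 to 2 for Idi1, 0.57 to 1.77 for Sqle, 1.07 to 1.55 for Hsd17b7 and 0.84 to 1.4 for Nsdhl, enzymes that missed the test in WT. Abca1 lay between -2.88 and -2.24, Mylip between -2.37 and -1.38 and Nr1h3 between -2.55 and -1.65.

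With the number as a fixed block, in the 8 libraries that have a partner (leaving out replicate 2 of WT spleen and replicate 1 of Maf-KO spleen), 17 members were called in WT, 13 higher and 4 lower, where 18.9% and 18.5% of all genes were called. In Maf-KO 18 were called, 13 higher and 5 lower, beside 20.2% and 19.7% of all genes. In WT the block added Idi1 (log2 fold change 1.56, adjusted p = 0.00479), Sqle (1.35, adjusted p = 0.000614), Hsd17b7 (1.39, adjusted p = 0.000555) and Nsdhl (1.04, adjusted p = 0.00181). It also added Fdps (0.53, adjusted p = 0.0352), Fdft1 (0.37, adjusted p = 0.0452), Sc5d (0.45, adjusted p = 0.0473) and Nr1h3 (-2.19, adjusted p = 0.00201), and Npc1 was no longer called (-0.40, adjusted p = 0.062). As a random effect over all 10 libraries, the number gave 16 calls in WT and 17 in Maf-KO, beside 5498 and 5777 of 13214 genes. Scap (-0.30, adjusted p = 0.0226) was then among the members lower in WT gut. In Maf-KO the fixed block added Idi1 (0.96, adjusted p = 0.0257), Fdps (0.74, adjusted p = 0.00677), Sqle (0.68, adjusted p = 0.0126), Soat1 (0.51, adjusted p = 0.0051) and Nr1h3 (-1.85, adjusted p = 0.00525). With no block, leaving out WT spleen replicate 2 by itself gave 13 called members in WT, beside 2947 of 13129 genes. That library was the highest of its group in 7 of 7 mevalonate enzymes and 10 of 11 sterol enzymes.

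**Figure D3:**
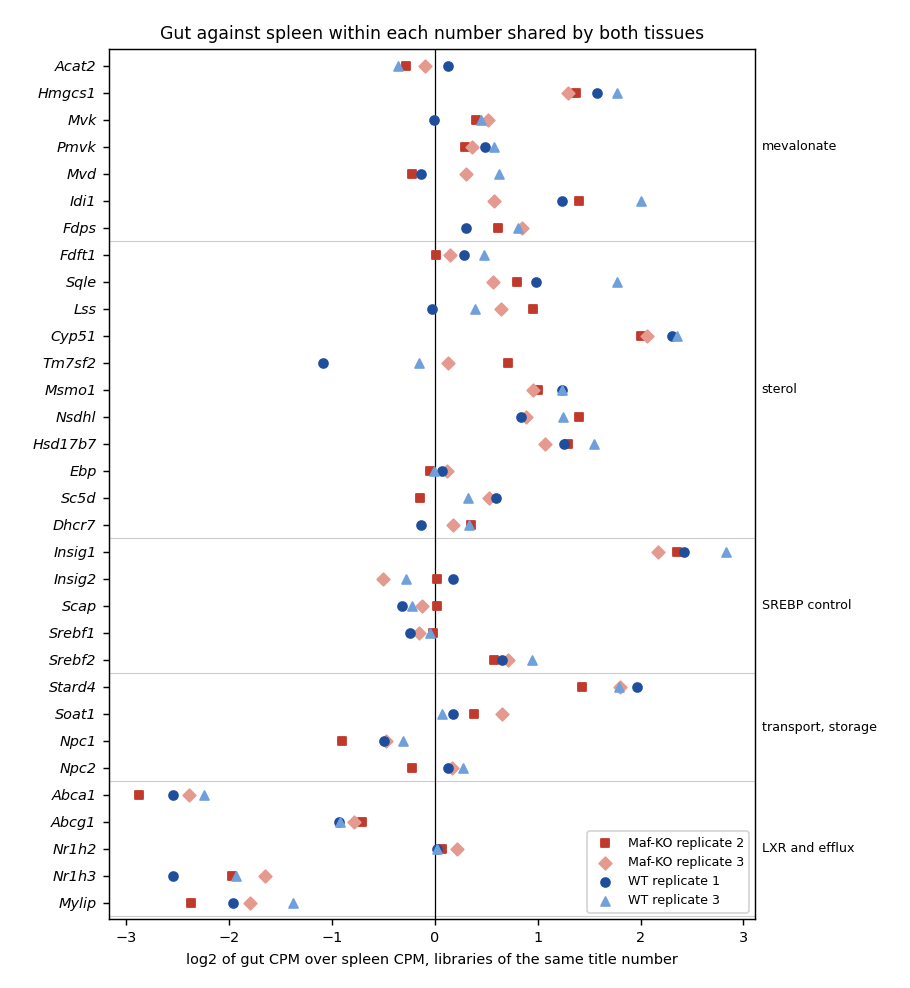
Log2 of gut CPM over spleen CPM (horizontal axis) for each member, with a symbol for each of the 4 gut and spleen pairs that share a genotype and number. Hmgcs1, Cyp51, Msmo1, Insig1 and Stard4 lie at 0.95 or more in all 4, and Abca1, Mylip and Nr1h3 at -1.38 or less in all 4.

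Levels were compared between genes on the authors' log2 FPKM values, which are scaled to gene length. In WT gut the highest group means among the members were those of Msmo1 (6.34 ± 0.34), Cyp51 (6.13 ± 0.35), Srebf2 (6.12 ± 0.13), Npc2 (5.86 ± 0.01) and Insig1 (5.85 ± 0.28), with the SD over 2 libraries. These neighbours in the order lay within 1 SD or close to it, apart from the step from Srebf2 to Npc2. In WT spleen the order began with Npc2 (5.91 ± 0.08), Sc5d (5.77 ± 0.26), Srebf2 (5.73 ± 0.35) and Nr1h2 (5.68 ± 0.06), over 3 libraries, which again overlapped in their spread. Cyp51 stood 12th in WT spleen at a log2 FPKM of 4.36 ± 0.59, and Insig1 stood 19th at 3.66 ± 0.52. The lowest members in WT gut were Abca1 (-1.16 ± 0.66) and Nr1h3 (-0.62 ± 0.59), and in WT spleen Idi1 (0.79 ± 0.9) and Hsd17b7 (1.32 ± 0.8), while Abca1 was at 1.49 ± 0.32 there. Mylip was at 2.04 ± 0.36 in WT gut and 3.89 ± 0.13 in WT spleen.

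**Figure D4:**
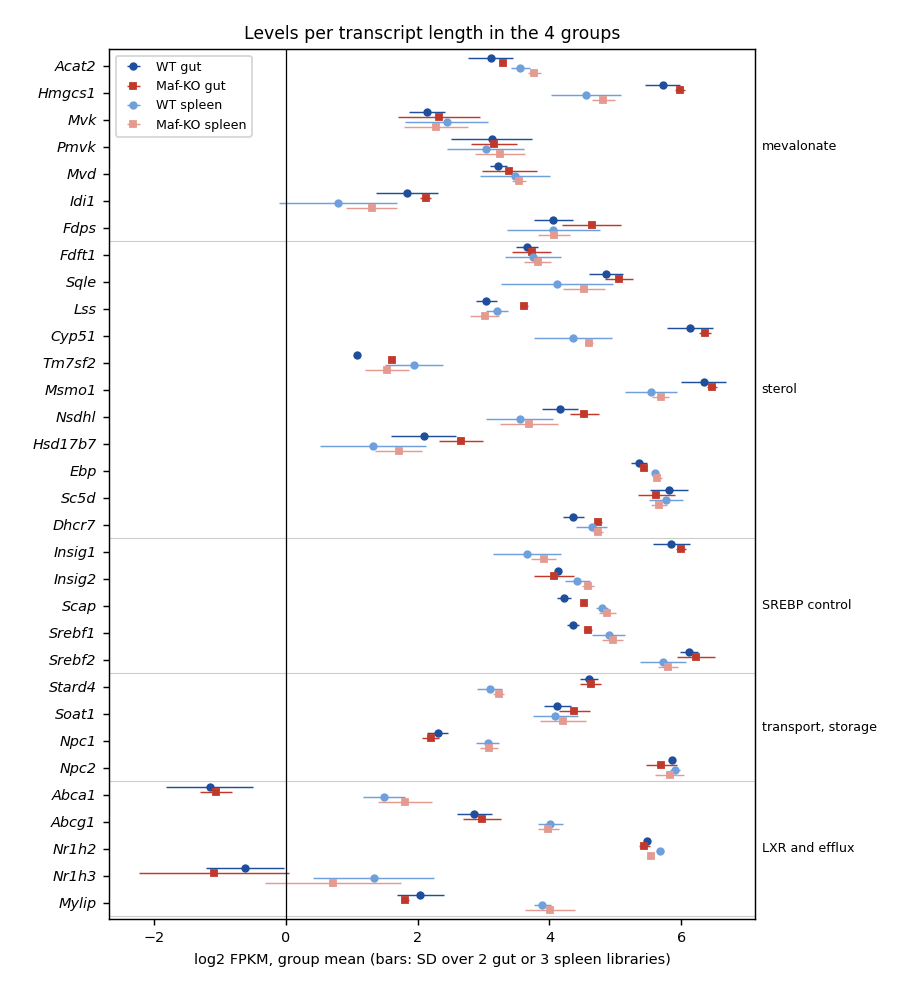
Group mean of the authors' log2 FPKM (horizontal axis, bars are the SD over 2 gut or 3 spleen libraries) for each member in the 4 groups. Enzymes such as Msmo1 and Cyp51 lie above 6 in both gut groups, and Abca1 and Nr1h3 lie below 0 in both gut groups.

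The comparison of genotypes asked what the loss of Maf does to these genes in each tissue. In gut, 0 of 32 members were called, by edgeR, by DESeq2 and by limma-voom, beside 0.151% of all genes (20) by edgeR. With the title number as a random-effect block, 42 genes and again 0 members were called. At an unadjusted p under 0.05 there were 3 members, all higher in Maf-KO, a share near the 8.14% of all genes. Lss averaged 41 ± 2.1 CPM in Maf-KO gut and 27.2 ± 4.01 CPM in WT gut (SD over 2 libraries, log2 fold change 0.59, SE 0.19), at an adjusted p of 0.451. Scap was at 78.7 and 91.2 CPM in WT gut and at 106 CPM in both Maf-KO gut libraries (0.32, SE 0.13, adjusted p = 0.579). Dhcr7 was at 55.5 and 68.2 CPM in WT gut and at 82.6 and 78.4 CPM in Maf-KO gut (0.38, SE 0.16, adjusted p = 0.594).

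In 10 members both Maf-KO gut libraries were above both WT gut libraries, and in 0 members both were below, beside 17.4% and 18.8% of all genes. Besides Lss, Scap and Dhcr7 they were Hmgcs1, Fdps, Tm7sf2, Nsdhl, Hsd17b7, Ebp and Srebf1, which makes 6 sterol enzymes, 2 mevalonate enzymes and 2 control genes. Fdps was at 29.1 and 22.6 CPM in WT gut and 31.3 and 48.9 CPM in Maf-KO gut (0.63, SE 0.38, adjusted p = 0.729). Tm7sf2 was at 3.14 and 3.43 CPM against 4.87 and 4.79 CPM (0.55, SE 0.35), and Ebp at 78.1 and 72.7 CPM against 80.6 and 82.1 CPM (0.11, SE 0.10). Srebf1 was at 87 and 99.9 CPM against 106 and 115 CPM (0.24, SE 0.17). The values of Hmgcs1, Nsdhl and Hsd17b7 in each gut library stand above, and their log2 fold changes were 0.28, 0.39 and 0.58. The median over the 32 members was 0.18, with 25 positive, and over all genes it was 0, with 49.3% positive.

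The members with large tissue differences differed little between genotypes in gut, with intervals that still allow moderate changes. The log2 fold change of Maf-KO over WT in gut was 0.17 for Insig1 (95% interval -0.4 to 0.73), 0.25 for Cyp51 (-0.42 to 0.92), 0.05 for Stard4 (-0.29 to 0.4), 0.14 for Msmo1 (-0.36 to 0.64) and 0.13 for Srebf2 (-0.35 to 0.62). It was 0.04 for Abca1 (-0.83 to 0.92), 0.15 for Abcg1 (-0.31 to 0.61) and -0.24 for Mylip (-0.84 to 0.36). The widest interval was that of Nr1h3, the member with the fewest reads.

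In spleen 0 of 32 members were called and 0 had an unadjusted p under 0.05, by edgeR, DESeq2 and limma-voom, beside 0.0151% of all genes called by edgeR (2, and 0 with the random-effect block). The log2 fold changes lay between -0.49 (Nr1h3) and 0.39 (Idi1), with an adjusted p of 0.999 for every member. Nr1h2 was the member whose groups did not overlap, at 89.4, 87.5 and 93.1 CPM in WT spleen and 82.4, 84 and 82.5 CPM in Maf-KO spleen (-0.12, SE 0.08), so 0 members had all Maf-KO libraries higher and 1 had all lower, beside 3.6% and 3.9% of all genes. Insig1 was at 0.22 (95% interval -0.26 to 0.7), Cyp51 at 0.18 (-0.38 to 0.73), Stard4 at 0.16 (-0.14 to 0.45), Abca1 at 0.35 (-0.28 to 0.97) and Mylip at 0.18 (-0.28 to 0.63). The median of the 32 was 0.11, with 23 positive, and that of all genes -0.01, with 48.5% positive. Without WT spleen replicate 2, 4 members had an unadjusted p under 0.05 by edgeR, beside 624 of 13129 genes, and 0 members were called.

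**Figure D5:**
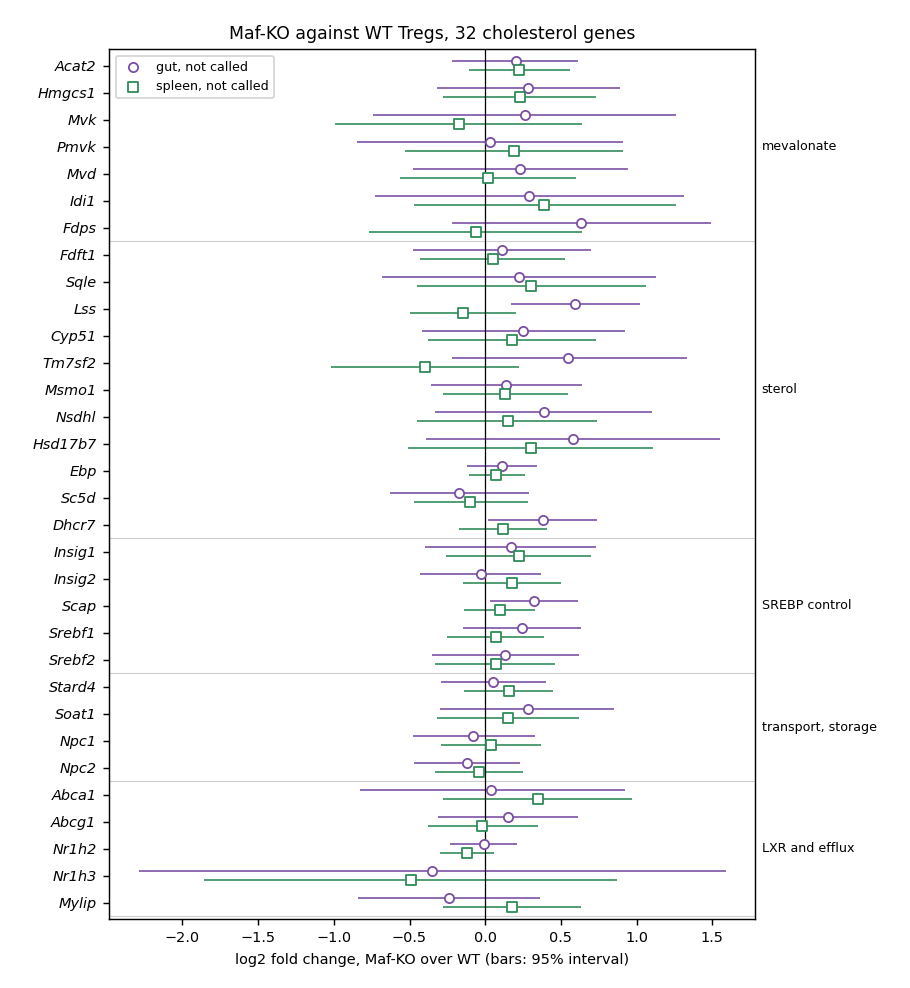
Log2 fold change of Maf-KO over WT (horizontal axis, bars are the 95% interval) for each of the 32 members in gut (circles) and spleen (squares). Open symbols mark an adjusted p of 0.05 or more, which holds for every member, and in gut the intervals of Lss, Scap and Dhcr7 lie above 0.

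The difference of the genotype effects between gut and spleen (interaction) was called for 0% of the 13214 genes by edgeR, with 422 genes at an unadjusted p under 0.05, and for 8 genes by DESeq2, none of them a member. By edgeR with no block, Lss was the member with an unadjusted p under 0.05, with a difference of 0.74 (SE 0.25, 95% interval 0.19 to 1.29, adjusted p = 1). Tm7sf2 had a difference of 0.96 (95% interval -0.04 to 1.95). For the members called between tissues in both genotypes the difference lay between -0.42 (Mylip) and 0.16 (Abcg1). Its interval was -0.8 to 0.69 for Insig1, -0.8 to 0.94 for Cyp51 and -0.56 to 0.35 for Stard4. With the title number as a fixed block, 5 members had an unadjusted p under 0.05, beside 956 of 13101 genes. As a random effect it gave 2 such members, beside 982 of 13214 genes, and 0 members were called with either.

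Other genes of lipid metabolism were read from 4 lists, for SREBP processing, fatty acid synthesis under SREBP-1, lipoprotein uptake with lysosomal and membrane transport, and oxysterol enzymes with further LXR targets. Over all genes, 14.7% were called higher and 13.3% lower in WT gut against spleen, and 14.4% and 14.1% in Maf-KO. Of the 8 SREBP processing genes, 1 was called higher and 2 lower in WT gut, and 0 higher and 2 lower in Maf-KO. With the number as a fixed block, 4 were lower in WT, beside 18.5% of all genes. Erlin2, a subunit of the complex that removes sterol-regulated proteins from the endoplasmic reticulum, was -0.93 in WT (adjusted p = 0.00136) and -1.20 in Maf-KO (adjusted p = 0.000315). The ubiquitin ligase gene Rnf139 was 0.37 in WT (adjusted p = 0.0264), a call that was lost without the TMM factors.

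Of the 13 fatty acid genes tested of 15, 2 were called higher and 4 lower in WT gut, and 3 higher and 4 lower in Maf-KO gut, each against spleen. With the number as a random effect, 4 were higher in WT, beside 2810 of 13214 genes. Elovl6, an elongase of long-chain fatty acids, was at 45.9 ± 4.02 CPM in WT gut and 15.8 ± 3.24 CPM in WT spleen (log2 fold change 1.54, adjusted p = 0.000483). In Maf-KO its log2 fold change was 1.97 (adjusted p = 0.000113). The desaturase gene Scd2 was -1.39 in WT (adjusted p = 0.00104) and -0.86 in Maf-KO (adjusted p = 0.0102), and the acyl-CoA synthetase gene Acsl3 was -1.29 (adjusted p = 0.00636) and -1.50 (adjusted p = 0.00301). Mid1ip1, which encodes a regulator of acetyl-CoA carboxylase, was 0.76 in WT (adjusted p = 0.00459), and the phosphatidate phosphatase gene Lpin1 was 0.79 in Maf-KO (adjusted p = 0.00848). The fixed block also called Lpin1 in WT (0.40, adjusted p = 0.0196) and Mid1ip1 in Maf-KO (0.44, adjusted p = 0.0223). The median of this list was -0.28 in WT and 0.11 in Maf-KO.

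Of 11 uptake and transport genes tested of 12, 1 was called higher and 5 lower in WT gut, and 1 higher and 3 lower in Maf-KO gut. With the random effect 2 were higher in WT and 3 were higher in Maf-KO, beside 2810 and 2895 of 13214 genes. The fixed block called 2 higher in Maf-KO, beside 20.2% of all genes. The receptor gene Lrp1 was -2.22 in WT (adjusted p = 0.00511) and -1.56 in Maf-KO (adjusted p = 0.0241). It rests on low counts, 8 and 18 in WT gut and 15 and 21 in Maf-KO gut. Its WT call was held in 18 of 19 alternatives and its Maf-KO call in 16 of 19. The lysosomal lipase gene Lipa was -0.54 (adjusted p = 0.00922) and -0.45 (adjusted p = 0.0208), and the sterol transporter gene Gramd1b was 0.58 (adjusted p = 0.018) and 0.75 (adjusted p = 0.00497). Of 4 oxysterol and LXR target genes tested of 6, 0 were called higher and 1 lower in each genotype. They were Lpcat3, a phospholipid acyltransferase, in WT (-0.56, adjusted p = 0.0181) and Nceh1, a cholesterol ester hydrolase, in Maf-KO (-0.54, adjusted p = 0.0141). With the random effect Lpcat3 was called in Maf-KO as well (-0.32, adjusted p = 0.0213).

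Between genotypes, edgeR called 0 of the 36 genes tested from these 4 lists in either tissue. At an unadjusted p under 0.05 there were 8 in gut, 7 of them higher in Maf-KO, and 1 in spleen. Over all genes, 8.14% had such a p in gut, and 376 of 13214 genes had it in spleen. Fasn, the fatty acid synthase, was at 134 and 166 CPM in WT gut and at 264 and 237 CPM in Maf-KO gut (log2 fold change 0.74, SE 0.21, adjusted p = 0.366). Scd2 was at 28.1 and 38.9 CPM in WT gut and at 53.1 and 59.3 CPM in Maf-KO gut (0.74, SE 0.22, adjusted p = 0.395). Both genes were higher in every Maf-KO gut library, as were 17.4% of all genes, and neither passed the test. Nceh1 was -0.42 in gut (SE 0.15, adjusted p = 0.491).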

How the data were processed

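RNA of sorted Tregs was prepared with RNeasy Plus Mini and TruSeq RNA kits, per the labels. The authors deposited raw read counts per gene, not normalised, and log2 FPKM values of 12252 genes, all 32 members among them. Tools named in the submitters' processing notes are Subread, featureCounts and limma, with GRCm38 and mm10 as builds. Counts of 852 entries without a symbol (0.173 to 0.203% of a library) stayed in the totals and tests.

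Tests on the counts used edgeR 4.0.16 under R 4.3.3. Genes passing filterByExpr (minimum count 10, minimum total 15) numbered 13214. TMM factors were 0.8866 to 1.122. All 10 libraries entered a quasi-likelihood model with a coefficient for each of the 4 groups (prior degrees of freedom 3.97, common dispersion 0.0431), and contrasts were tested two-sided, adjusted by Benjamini-Hochberg over all genes, with calls at 0.05. Alternatives used DESeq2 1.42.0, limma 3.58.1 (voom, or trend on the authors' log2 values), other size factors, no filter, no TMM factors, groups alone, blocks, and each library left out. The steps of the main model were tested on simulated data of independent libraries, which do not cover the pairing by title number. Replicates of a group differed by more than counting noise (chi-square per degree of freedom 13.9 to 32.6). The floor of 3 counts covers counting error only.

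Gut and spleen libraries of a genotype share a number in the titles in 4 cases. Their deviations from the group means correlated at 0.313, 0.255, 0.382 and 0.36, and other combinations at -0.382 to 0.01, so the numbers were taken to pair the samples. With 2 gut libraries a group, the deviations within a group mirror each other. The labels do not say what a number stands for.

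The members and the gene lists were chosen with earlier results of these data known, so no list was tested as a set. All members are described, with up to 4 called genes by adjusted p from each other list and contrast, or up to 2 by unadjusted p where none is called. Some genes that this rule names are not reported here.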

Additional observations from a re-analysis of the deposited data

How the results depend on the processing

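Every member called between tissues kept its sign in 19 of 19 alternatives. Calls of Hmgcs1, Cyp51, Insig1, Stard4, Abca1 and Mylip were held in all 19 in both genotypes, and Lss and Msmo1 in all 19 in Maf-KO. The 10 members called in WT became 16 with the number as a random-effect replicate block and 17 with a fixed replicate block, and 6 to 13 with a library left out, the fewest without WT gut replicate 1. The 13 in Maf-KO became 17 with the random-effect and 18 with the fixed replicate block, and 8 to 16 with a library left out, with 8 when replicate 3 of Maf-KO gut was left out and also without replicate 2 of Maf-KO spleen. Over all genes, calls between tissues were 3703 in WT (2183 to 3597 with a library left out, and 5498 with the random block). In Maf-KO they were 3772 (2118 to 3784, and 5777 with the random block), with 2393 and 2118 without Maf-KO gut replicates 2 and 3. Between genotypes in gut 20 genes were called, and 74 with no filter, 107 by DESeq2, 33 by limma-voom, 42 with the random block, 12 with the groups alone and 4 to 22 with a library left out. In spleen 2 were called, and 12 with no filter, 18 by DESeq2, 0 by limma-voom, 0 with the random block, 5 on log2 FPKM, 1 with the groups alone and 2 to 9 with a library left out. The interaction, with 0 genes called, had 8 by DESeq2. The causes of these shifts were not tested. Members called between genotypes were 0 in each alternative run. Replicate numbers of WT and Maf-KO spleen do not pair the samples (correlations -0.039, -0.183 and -0.347), and a replicate block on them called 0 genes, with 194 at an unadjusted p under 0.05. The replicate blocks changed no other call of a member than those named with the results. They also changed calls of genes in the other lists, where the counts that moved by over 1.5 times are given. Of the counts recomputed, 157 stayed within 1.5 times and 29 did not. Low counts limit Nr1h3, Abca1 in gut, Tm7sf2 and Idi1 and, in the other lists, Lrp1 in gut.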

Other observations

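In WT spleen and in both gut groups, many synthesis enzymes ranked the libraries alike. In WT spleen, replicate 3 was the lowest library in 6 of 7 mevalonate enzymes and in 11 of 11 sterol enzymes, and replicate 2 was the highest in 7 of 7 and 10 of 11. In Maf-KO gut, replicate 3 was the highest in 6 of 7 mevalonate and 9 of 11 sterol enzymes. In WT gut, replicate 3 was the lowest in 6 of 7 and 8 of 11. In Maf-KO spleen the order was mixed. Replicate 2 was the lowest in 3 of 7 and 6 of 11, and replicate 3 the highest in 4 of 7 and 6 of 11. Replicate 1 was the lowest in 3 of 7 and 3 of 11, and the highest in 3 of 7 and 3 of 11. The genes of such a count are read from the same libraries and are not independent of each other. The same ranks were not counted over all genes, so a trait of the enzymes cannot be told from one of the library.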
